A study of Mus musculus with 9 samples.

Results

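The NRF2 antioxidant genes are the transcription factor gene Nfe2l2, the gene of its inhibitor Keap1, and 8 of its best-known targets, Hmox1, Nqo1, Gclc, Gclm, Gsr, Txnrd1, Srxn1, and Osgin1. The rule that chose them uses their names and roles, and no measured value, but earlier results of these data were known when they were chosen. These 10 genes were found by symbol among the 50686 genes of the deposited count table, and all 10 passed the expression filter, which kept 15531 genes. The RNA-Seq libraries came from control MC3T3-E1 osteoblasts, from the same osteoblasts kept with SB216763 at 10 μM over 14 days, and from mouse pulmonary ECs (n = 3 each). MC3T3-E1 cells are an established osteoblast line from mouse, and the compound SB216763 blocks the kinase GSK3. The study describes the ECs as cells isolated by FACS. The time in culture and the vehicle of the control osteoblasts are not given in the sources used here. Nothing in the labels says that the replicates came from separate cultures or animals, so the p-values measure only the spread between these libraries, which may be technical.

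NRF2, the protein of Nfe2l2, is held at a low level by KEAP1, which passes it to a CUL3 ubiquitin ligase for degradation. Oxidants and electrophiles modify KEAP1, and NRF2 then accumulates, pairs with a small MAF protein, and binds antioxidant response elements (AREs) near genes for glutathione synthesis, thioredoxin recycling, quinone reduction, and heme breakdown. A second route to degradation runs through phosphorylation of NRF2 by GSK3 and recognition by the β-TrCP ligase, so that GSK3 inhibitors are known to raise NRF2 protein. RNA-Seq measures transcripts only, and no protein level was measured in these libraries.

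The ARE is the sequence through which NRF2 acts, and stretches of promoters that hold its core are shown here because they mark the members with such a core close to the transcription start. RefSeq promoter windows on GRCm38.p6, from 250 bases before to 50 bases after a start, were present for 7 of the 10 genes. They were searched on both strands for the ARE core TGACNNNGC and the related AP-1 site TGACTCA, which can lie inside a longer ARE. An ARE core lay before the start in 3 of the 7 genes. Each stretch is written 5′ to 3′ along the strand of the gene, with the match in capitals. A core on the opposite strand reads as its reverse complement.
Nfe2l2: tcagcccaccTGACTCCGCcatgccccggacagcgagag
Gclm: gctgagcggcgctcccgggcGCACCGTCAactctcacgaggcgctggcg
Txnrd1: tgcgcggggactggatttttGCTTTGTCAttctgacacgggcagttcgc
The Nfe2l2 stretch lies at chr2:75704875-75704913 on the minus strand, with its core 240 bases before the start. The Gclm stretch lies at chr3:122245403-122245451 on the plus strand, with its core 134 bases before the start. The Txnrd1 stretch lies at chr10:82859094-82859142 on the plus strand, with its core 92 bases before the start of 1 of the 3 Txnrd1 windows.

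The AP-1 site occurred before the start in 2 of the 7 genes, with 2 matches in Srxn1 and 1 in Osgin1, again in capitals.
Srxn1: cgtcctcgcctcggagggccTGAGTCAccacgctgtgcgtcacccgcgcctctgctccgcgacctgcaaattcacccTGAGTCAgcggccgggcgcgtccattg
Osgin1: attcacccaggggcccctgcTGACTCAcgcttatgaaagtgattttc
The Srxn1 stretch lies at chr2:152105402-152105505 and the Osgin1 stretch at chr8:119437030-119437076, both on the plus strand. Srxn1 also held an ARE core 28 bases after the start. Keap1 and Nqo1 held neither sequence in their windows. Sequence outside the windows was not searched, so a missing match says nothing about AREs further from the start. Of the 27025 genes with promoter windows, 11.5% held the ARE core and 5.16% the AP-1 site in the 250 bases before a start, and a match is a description of the sequence, not of binding. The sequence CTTTGAT, a form of the TCF/LEF site through which β-catenin acts, was found before the start in 0 of the 7 genes. It was found in 3.72% of all genes with windows. At that share no match in 7 genes is the likely outcome, so the count says nothing about these genes. Other forms of the site were not searched.

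The libraries held between 30990107 and 68946333 counts, and 3 counts corresponded to 0.0435 to 0.0968 CPM (counts scaled to the library's total), for counting error only. Levels are given as CPM after TMM normalization, and the lowest count of any of the 10 genes in any library was 403, for Osgin1 in an EC library. No pair of replicates agreed within sampling noise. The chi-square per gene between 2 replicates was 29.9 to 115 in the control libraries, 3.44 to 30 with SB216763, and 3.05 to 4.95 in the ECs. It grows with the counts, which differ between libraries. The edgeR test used below shares its estimate of the spread over the 3 groups. The osteoblast markers summed to 43900 to 59300 CPM in the control libraries, 8130 to 8410 CPM in the SB216763 libraries, and 45.3 to 64.7 CPM in the ECs, a sum made up mostly of Col1a1 and Col1a2. Of these 8 markers (Sp7, Runx2, Alpl, Ibsp, Col1a1, Col1a2, Phex, and Dmp1) 6 fell with SB216763, Phex was not called, and the osteocyte gene Dmp1 rose from 0.185 to 66.4 CPM. Marker calls used the edgeR test described below, by which 32.9% of all genes tested were higher and 32% lower with SB216763. The 8 endothelial markers Cdh5, Pecam1, Kdr, Tek, Tie1, Emcn, Nos3, and Erg summed to 6750 to 6910 CPM in the ECs, and to 2.69 to 3.4 CPM in the control and 2.68 to 3.12 CPM in the SB216763 libraries. Each of the 8 was under 1 CPM in every osteoblast library, treated or not. Of the 8 leukocyte markers, Ptprc, Adgre1, Cd79a, Cd3e, and Marco were under 1 CPM in every library. The list summed to 26.8 to 28.3 CPM in the control libraries, 8.57 to 10.1 CPM in the SB216763 libraries, and 57.3 to 59.7 CPM in the ECs, where Cd68 reached 46.6 CPM. Lung epithelial markers summed to at most 3.27 CPM in any library. Mural and fibroblast markers summed to 3450 to 3620 CPM in the control osteoblasts, 1230 to 1280 CPM in the SB216763 osteoblasts, and 41.2 to 42.6 CPM in the ECs. The lower sum with SB216763 came from Acta2 (2915 to 144 CPM), while 3 of the 7 tested rose (Pdgfrb, Pdgfra, and Lum) and 3 fell. The part of these differences in the results was not tested. In bulk RNA, fewer cells of a type and less RNA per cell cannot be told apart.

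The first comparison asked how the NRF2 genes responded to GSK3 inhibition. All 10 genes were higher in the SB216763 osteoblasts than in the control osteoblasts, and for each gene the 3 SB216763 libraries lay above the 3 control libraries. In the quasi-likelihood test of edgeR (p-values adjusted by Benjamini-Hochberg), 10 of 10 were higher at an adjusted p-value (FDR) under 0.01 and 0 were lower. Of all genes tested, 32.9% were higher and 32% lower by the same rule, and 37.3% had all SB216763 libraries above all control libraries. Genes described below as having risen or fallen had an FDR under 0.01. At a change of at least 4-fold, 2 of the 10 were higher, Hmox1 and Nqo1, and 0 were lower, against 3.81% and 5.84% of all genes tested. The median log2 fold change of the 10 genes was 0.99, and that of all genes tested was 0.01. The 10 genes fell into a group of 6 with log2 fold changes between 0.86 and 2.88, and a group of 4, Keap1, Gsr, Gclm, and Txnrd1, between 0.21 and 0.30. Of all genes tested, 83.9% or more had a lower log2 fold change than each of the first 6, and 59.9% to 64.5% had a lower one than each of the other 4. Scaling by library size alone shifted the median of all genes by 0.20 on the log2 scale and turned the share of higher genes among those called from 50.75% to 63.72%. The log2 fold changes of these 4 are thus close in size to a shift that the scaling alone can give. Under that scaling they lay between 0.41 and 0.50, and the calls were kept. Without SB216763 replicate 1, the adjusted p-value of Txnrd1 was 0.0128 and 9 of the 10 genes remained called.

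**Figure D1:**
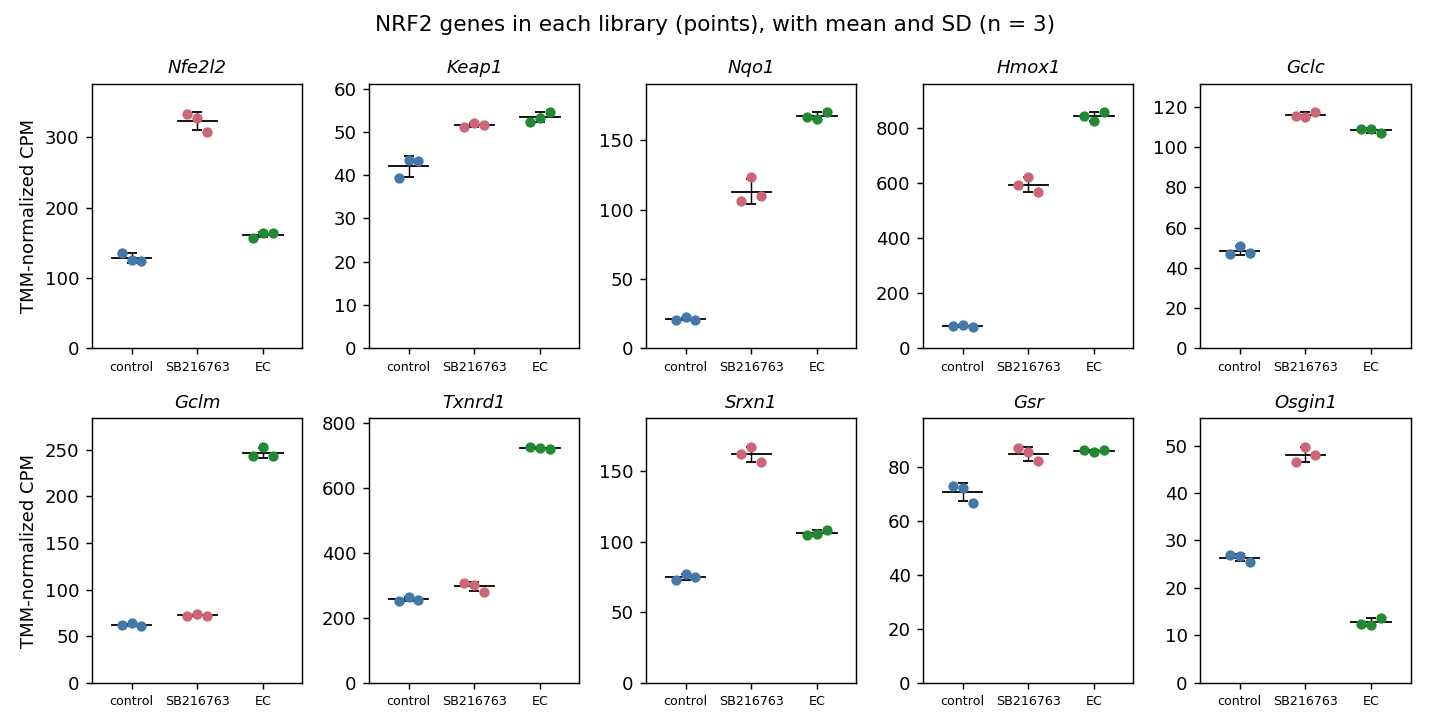
Levels of the 10 NRF2 genes in each library, in TMM-normalized CPM from 0 on a separate scale for each gene, for control osteoblasts, SB216763 osteoblasts, and ECs. Points are libraries, and black lines are the mean with the SD (n = 3). SB216763 libraries lie above the control libraries in all 10 panels, while Gclm and Txnrd1 are highest in ECs and Osgin1 is lowest there.

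Nfe2l2 (ENSMUSG00000015839; chromosome 2, 75675513 to 75704641, minus strand, in GENCODE M21 on GRCm38) encodes NRF2 itself. Its level was 136, 126, and 123 CPM in the control libraries, 333, 328, and 308 CPM in the SB216763 libraries, and 157, 163, and 164 CPM in the ECs. The groups did not overlap, and the SB216763 osteoblasts stood apart from both the others. The transcript was 2.52-fold higher after SB216763, with a log2 fold change of 1.33 ± 0.05 (SE) and an adjusted p-value of 9.19e-13 (edgeR, Benjamini-Hochberg). ECs were 1.26-fold above the control osteoblasts (log2 fold change 0.33 ± 0.05, adjusted p-value 1.34e-05 by the same test). Groups without overlap were common in these data. Of all genes tested, 37.3% had all SB216763 libraries above all control libraries and 35.9% had them all below. For ECs against control these shares were 42.6% and 41.4%, and for SB216763 against ECs 41.6% and 43.8%. The same shares apply to the genes below.

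Keap1 (ENSMUSG00000003308; chromosome 9, 21229730 to 21239361, minus strand) encodes the sensor that holds NRF2 down. It moved far less, from 39.3, 43.5, and 43.2 CPM in the control libraries to 51.1, 52.1, and 51.6 CPM after SB216763, with 52.3, 53.1, and 54.6 CPM in the ECs. The control libraries lay below all others, while SB216763 and EC libraries were adjacent. The change with SB216763 was 1.23-fold (log2 fold change 0.30 ± 0.05, adjusted p-value 2.93e-05, edgeR with Benjamini-Hochberg adjustment). Between SB216763 osteoblasts and ECs the log2 difference was -0.05 ± 0.05 (adjusted p-value 0.356), which did not pass the test. Keap1 shares 510 exon bases with the antisense gene Gm16754, which held at most 31 counts in a library against at least 1245 for Keap1.

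The ratio of the factor to its inhibitor within a library does not depend on how libraries are scaled. Per kilobase of exon, the Nfe2l2 to Keap1 ratio was 4.27, 3.57, and 3.53 in the control libraries, 8.05, 7.78, and 7.38 in the SB216763 libraries, and 3.72, 3.80, and 3.71 in the ECs. The SB216763 libraries lay above both other groups, by log2 differences of 1.03 and 1.05, and the ranges of those groups overlapped. This ratio and the ratios of Gclc to Gclm and Hmox1 to Hmox2 below were chosen after the values of the genes were seen. They gave 9 comparisons of 3 against 3 libraries, in which an exact 2-sided permutation test cannot give a p-value below 0.1. It gave 0.1 for the SB216763 osteoblasts against either group (0.113 after Benjamini-Hochberg adjustment over the 9) and 1.0 for ECs against the control osteoblasts.

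Of 20 other regulators of NRF2, 19 were tested, and with SB216763 8 were higher and 3 lower, with a median log2 fold change of 0.12, where 32.9% and 32% of all genes tested were higher and lower. Bach1, the repressor that competes with NRF2 for AREs, rose from 69.0 to 155 CPM (mean of 3, log2 fold change 1.17 ± 0.05), in the same direction as Nfe2l2. It was at 33.1 CPM in the ECs. Sqstm1, the autophagy receptor that draws KEAP1 into degradation, rose from 581 to 1163 CPM (1.001 ± 0.05). Cul1, a scaffold of the β-TrCP ligase, rose from 187 to 411 CPM (1.14 ± 0.04), and Btrc, which encodes β-TrCP, from 32.6 to 43.4 CPM (0.41 ± 0.05). The coactivator gene Ep300 rose by 0.67 ± 0.10. Among the small MAF partners, Mafg and Mafk rose by 0.55 ± 0.04 and 0.46 ± 0.05, and Maff fell from 15.02 to 7.57 CPM (-0.99 ± 0.07). Mafk, like Dmp1, Acta2, Pdgfrb, Pdgfra, Lum, Cd68, and Lyz2 among the markers, was named after its values were seen. All of these regulators had adjusted p-values of at most 1.94e-05 in edgeR's test with Benjamini-Hochberg adjustment. The transcripts of the drug's own targets did not pass the test, and their values turned with the processing. Gsk3a had a log2 fold change of 0.03 ± 0.05 (adjusted p-value 0.613, Benjamini-Hochberg), and of 0.24 when libraries were scaled by size alone, which passed. Gsk3b had one of -0.16 ± 0.06 (adjusted p-value 0.0182, Benjamini-Hochberg), 0.05 with that scaling, and values that passed with DESeq2 (-0.16) and without control replicate 2 (-0.22). The number of higher regulators was 14 by size alone.

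Hmox1 (ENSMUSG00000005413; chromosome 8, 75093621 to 75100589, plus strand) encodes heme oxygenase 1, the inducible enzyme that opens heme into biliverdin, iron, and carbon monoxide. It had the largest change of the 10 genes. Its level was 78.6, 85.6, and 77.6 CPM in the control libraries, 591, 621, and 567 CPM in the SB216763 libraries, and 844, 824, and 856 CPM in the ECs. The 3 groups were separate, and every treated library lay nearer to the ECs than to the controls. The gene was 7.35-fold higher after SB216763 (log2 fold change 2.88 ± 0.06, adjusted p-value 3.86e-16, edgeR with Benjamini-Hochberg adjustment). Only 307 of the 15531 genes tested had a higher log2 fold change. SB216763 osteoblasts remained below the ECs, with a log2 difference of -0.50 ± 0.05 (adjusted p-value 1.89e-07).

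The constitutive heme oxygenase gene Hmox2 moved little, from a mean of 33.5 CPM to 42.5 CPM (log2 fold change 0.34 ± 0.05), with 69.3 CPM in the ECs. Per kilobase of exon, Hmox1 to Hmox2 was 2.98, 3.22, and 2.93 in the control libraries, 17.2, 17.9, and 17.9 in the SB216763 libraries, and 15.4, 15.7, and 15.1 in the ECs. By this ratio the order of the treated osteoblasts and the ECs was the opposite of that by Hmox1 alone. All 3 differences between groups had an exact permutation p-value of 0.1, the smallest that 3 against 3 allows (0.113 after Benjamini-Hochberg adjustment over the 9).

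Of the 12 heme handling genes, Hmox2 included, 6 were higher and 3 lower with SB216763, or 9 and 1 when scaled by library size alone, where 32.9% and 32% of all genes tested were higher and lower. Slc40a1, the iron exporter ferroportin and itself an NRF2 target, rose from 1.76, 1.64, and 1.53 CPM to 23.6, 25.6, and 22.6 CPM, with 30.2, 32.6, and 31.1 CPM in the ECs (log2 fold change 3.84 ± 0.08, adjusted p-value 1.11e-15 by edgeR with Benjamini-Hochberg adjustment). The transferrin receptor gene Tfrc, which brings iron in, rose from 68.1 to 139 CPM (1.03 ± 0.06). Within heme synthesis, Cpox fell from 51.9 to 20.6 CPM (-1.33 ± 0.05), and Ppox and Uros rose by 0.62 ± 0.09 and 0.41 ± 0.07. Heme synthesis as a whole therefore held changes in both directions. The ferritin genes, which store the iron set free from heme, and the heme transporter gene Slc48a1 rose together with Hmox1. Fth1 went from a mean of 1262 to 8802 CPM (log2 fold change 2.80 ± 0.06) and Ftl1 from 216 to 1247 CPM (2.53 ± 0.08), and ECs had 2111 and 609 CPM. Both ferritin genes have near-identical pseudogene copies, and their counts are uncertain for that reason. Slc48a1 went from 80.8 to 434 CPM (2.43 ± 0.05), with 256 CPM in the ECs. For Fth1, Ftl1, and Slc48a1 the SB216763 osteoblasts were above both other groups, unlike for Hmox1.

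Nqo1 (ENSMUSG00000003849; chromosome 8, 107388225 to 107403206, minus strand) encodes a quinone reductase, and is the gene most often read as a sign of NRF2 activity. Its level was 20.6, 22.2, and 20.4 CPM in the control libraries, 106, 123, and 109.7 CPM in the SB216763 libraries, and 167, 166, and 171 CPM in the ECs. The 3 groups were separate, in the same order as for Hmox1. It was 5.36-fold higher after SB216763 (log2 fold change 2.42 ± 0.06, adjusted p-value 5.73e-15) and 7.95-fold higher in the ECs (2.99 ± 0.06, adjusted p-value 1.41e-16) than in the control osteoblasts, in edgeR's test with Benjamini-Hochberg adjustment. SB216763 osteoblasts were below ECs by a log2 difference of -0.57 ± 0.05 (adjusted p-value 7.47e-08).

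Nqo1 is also a target of the aryl hydrocarbon receptor, and 4 of 7 genes of that receptor's circuit were higher and 2 lower with SB216763, where 32.9% and 32% of all genes tested were. With so few genes and 1 of the 4 called from 12 to 16 counts (Cyp1a1), the count is a description only. Aldh3a1, an aldehyde dehydrogenase regulated by the receptor, rose from 5.36, 5.19, and 5.87 CPM to 57.6, 62.2, and 57.0 CPM, against 0.659 CPM in the ECs (log2 fold change 3.44 ± 0.08). Tiparp, a feedback inhibitor, rose from 41.0 to 142 CPM (1.79 ± 0.05), and Cyp1b1 from 166 to 220.4 CPM (0.41 ± 0.05). The repressor gene Ahrr fell from 3.06 to 0.860 CPM (-1.82 ± 0.15) and Ahr itself from 64.6 to 43.1 CPM (-0.58 ± 0.06). Cyp1a1, the receptor's classical target, was named after its values were seen. It had 0 counts in every control library and 12 to 16 counts in the SB216763 libraries, under 0.5 CPM in each. The part of this receptor in the level of Nqo1 was not tested.

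The genes of glutathione synthesis were not moved alike. Gclc (ENSMUSG00000032350; chromosome 9, 77754535 to 77794485, plus strand) encodes the catalytic subunit of glutamate-cysteine ligase, the rate-limiting enzyme, and Gclm (ENSMUSG00000028124; chromosome 3, 122245557 to 122270732, plus strand) its modifier subunit. Gclc was at 46.8, 50.9, and 47.5 CPM in the control libraries, 116, 115, and 118 CPM in the SB216763 libraries, and 109, 109, and 107 CPM in the ECs. Gclm was at 61.5, 63.7, and 60.9 CPM, then 71.7, 73.3, and 71.7 CPM, and 243, 253, and 243 CPM in the same order of groups. Treated libraries lay near the ECs in Gclc and near the control osteoblasts in Gclm. With SB216763, Gclc was 2.39-fold higher (log2 fold change 1.26 ± 0.04, adjusted p-value 4.56e-13) and Gclm 1.16-fold higher (0.22 ± 0.04, adjusted p-value 2.22e-04), by edgeR with Benjamini-Hochberg adjustment. In ECs against control osteoblasts, Gclc was 2.24-fold and Gclm 3.97-fold higher, the latter just under the 4-fold threshold, which it passed in 5 of 20 alternatives, among them those without control replicate 2 or EC replicate 1.

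Within each library and per kilobase of exon, Gclc to Gclm was 1.27, 1.34, and 1.30 in the control osteoblasts, 2.69, 2.62, and 2.74 after SB216763, and 0.750, 0.721, and 0.734 in the ECs. No group overlapped with another. SB216763 osteoblasts and ECs lay on opposite sides of the control osteoblasts, at log2 differences of 1.04 and -0.83. Each difference had an exact permutation p-value of 0.1, the smallest possible here (0.113 after Benjamini-Hochberg adjustment over the 9). Reads of Gclm share 296 exon bases with Gm17494 on the other strand and 244 with the pseudogene Gm6061, which held at most 56 and 0 counts in a library against at least 1754 for Gclm.

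**Figure D2:**
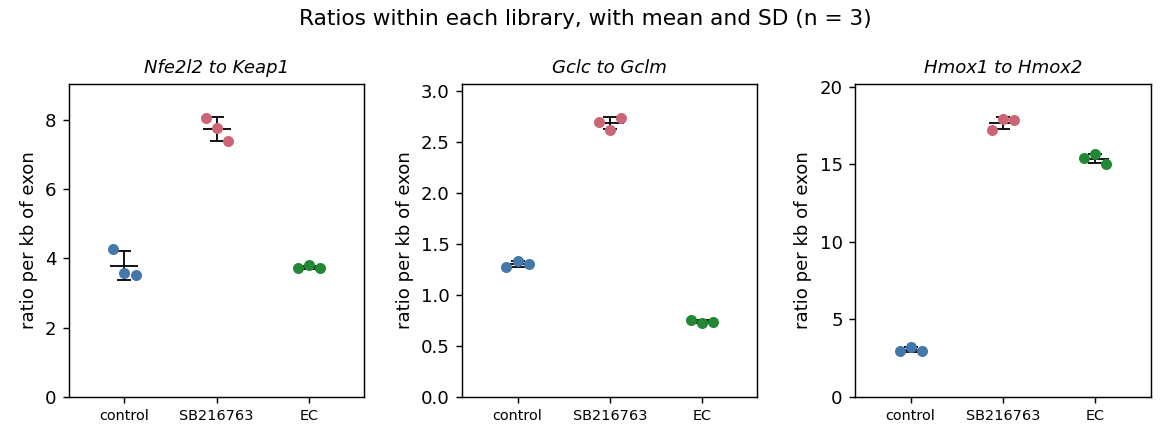
Ratios of Nfe2l2 to Keap1, Gclc to Gclm, and Hmox1 to Hmox2 within each library, in counts per kilobase of exon, for the 3 groups. Points are libraries, and black bars are the mean with the SD (n = 3). The ratio of Nfe2l2 to Keap1 is highest in SB216763 osteoblasts, with overlapping ranges in the other groups, and the ratio of Gclc to Gclm is highest in SB216763 osteoblasts and lowest in ECs.

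The cystine transporter gene moved in the other direction. Slc7a11, a supplier of cysteine for glutathione and a further NRF2 target, fell from 20.04, 15.6, and 17.6 CPM in the control libraries to 3.64, 4.22, and 3.70 CPM in the SB216763 libraries, against 94.2, 102, and 89.0 CPM in the ECs. The groups did not overlap, and the change with SB216763 was -2.20 ± 0.11 on the log2 scale (adjusted p-value 1.93e-11, edgeR with Benjamini-Hochberg adjustment). Gss, which completes glutathione synthesis, had a log2 fold change of 0.15 ± 0.06 that did not pass the test (adjusted p-value 0.0253), but passed at 0.36 with scaling by library size alone and at 0.19 without control replicate 2. Gsr (ENSMUSG00000031584; chromosome 8, 33652523 to 33698163, plus strand), which encodes the reductase that regenerates glutathione, was at 72.9, 72.2, and 66.8 CPM in the control libraries, 87.1, 85.8, and 82.1 CPM after SB216763, and 86.2, 85.6, and 86.4 CPM in the ECs. The control libraries were the lowest, and the SB216763 and EC libraries overlapped. Gsr was 1.20-fold higher after SB216763 (log2 fold change 0.26 ± 0.05, adjusted p-value 7.95e-05). It did not pass the test between SB216763 osteoblasts and ECs (-0.02 ± 0.05, adjusted p-value 0.707).

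In the thioredoxin branch, Txnrd1 (ENSMUSG00000020250; chromosome 10, 82833951 to 82897712, plus strand) encodes the cytosolic thioredoxin reductase. Its level was 254, 265, and 254 CPM in the control libraries, 308, 303, and 281 CPM in the SB216763 libraries, and 728, 723, and 722 CPM in the ECs. The SB216763 libraries lay just above the controls and far below the ECs, as for Gclm. The change with SB216763 was 1.15-fold (log2 fold change 0.21 ± 0.05, adjusted p-value 1.04e-03, edgeR with Benjamini-Hochberg adjustment), and that in the ECs 2.81-fold (1.49 ± 0.05, adjusted p-value 6.43e-14).

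Srxn1 (ENSMUSG00000032802; chromosome 2, 152105516 to 152111376, plus strand) encodes sulfiredoxin, which repairs overoxidized peroxiredoxins. Its level was 72.7, 77.0, and 74.9 CPM in the control libraries, 162, 167, and 156 CPM after SB216763, and 105, 105, and 108 CPM in the ECs. Here the treated osteoblasts were the highest group. The change with SB216763 was 2.16-fold (log2 fold change 1.11 ± 0.04, adjusted p-value 1.83e-12), and SB216763 osteoblasts exceeded ECs by 0.61 ± 0.04 on the log2 scale (adjusted p-value 1.75e-09), by edgeR with Benjamini-Hochberg adjustment.

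Osgin1 (ENSMUSG00000074063; chromosome 8, 119434124 to 119446256, plus strand) encodes an oxidative stress-induced growth inhibitor. It was at 27.0, 26.7, and 25.5 CPM in the control libraries, 46.6, 49.8, and 48.0 CPM in the SB216763 libraries, and 12.4, 12.3, and 13.8 CPM in the ECs. It was the only gene of the 10 that was lower in ECs than in the control osteoblasts. It was 1.82-fold higher after SB216763 (log2 fold change 0.86 ± 0.05, adjusted p-value 3.76e-10), and ECs were 2.06-fold lower than the control osteoblasts (-1.05 ± 0.06, adjusted p-value 6.46e-11), by edgeR with Benjamini-Hochberg adjustment.

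**Figure D3:**
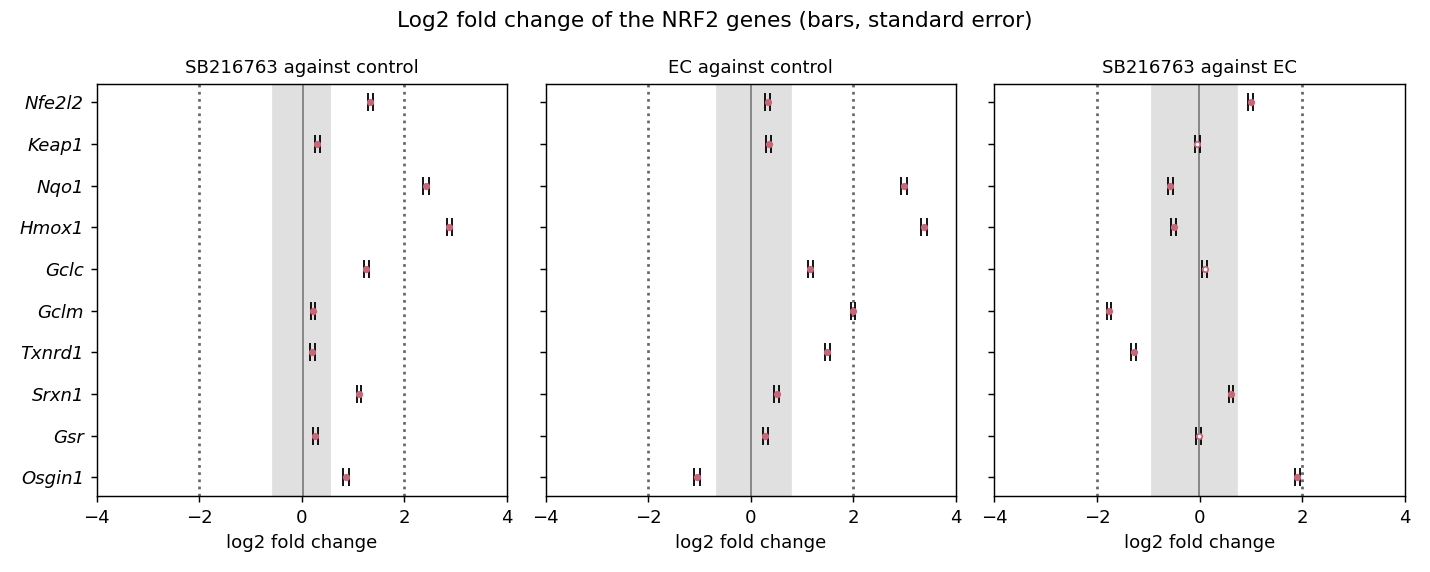
Log2 fold changes of the 10 NRF2 genes in the 3 comparisons. Points are edgeR estimates, bars the standard error, filled points have an FDR under 0.01, the gray band spans the middle 50% of all genes tested, and dotted lines mark 4-fold. Hmox1 and Nqo1 lie past 4-fold against the control osteoblasts, Gclm and Txnrd1 differ most between SB216763 and ECs among the lower genes, and Osgin1 among the higher ones.

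The ECs gave a second reference for the same genes. Against the control osteoblasts, 9 of the 10 genes were higher in ECs and 1 was lower, Osgin1, where 39% of all genes tested were higher and 37.9% lower by the same rule (edgeR, FDR under 0.01). At 4-fold, 2 were higher, again Hmox1 (10.4-fold) and Nqo1 (7.95-fold), and 0 lower, against 13.5% and 9.87% of all genes tested. The median log2 fold change was 0.83, and 0.01 over all genes tested. This comparison shares its control libraries with that of SB216763, so the direction of the 2 sets of values is not independent.

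Set directly against each other, SB216763 osteoblasts and ECs differed in 7 of the 10 genes. Nfe2l2, Srxn1, and Osgin1 were higher in the SB216763 osteoblasts, and Nqo1, Hmox1, Gclm, and Txnrd1 were lower, against 38.3% and 40.3% of all genes tested (edgeR, FDR under 0.01). Neither count exceeded its share of all genes tested, so a difference in itself does not set these genes apart. None differed by 4-fold, where 10.3% of all genes tested were higher and 15% lower. The differences of Osgin1 (log2 1.91 ± 0.06), Gclm (-1.77 ± 0.04), Txnrd1 (-1.29 ± 0.05), and Nfe2l2 (1.001 ± 0.05) were the 4 largest. Gclc differed by 0.10 ± 0.04 (adjusted p-value 0.0454, Benjamini-Hochberg), which missed the threshold, as did Keap1 and Gsr. The median over the 10 genes was -0.03, and -0.02 over all genes tested. Cell type and treatment differ together between these groups and their parts cannot be told apart.

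The order of the levels per kilobase of exon changed between the groups. The lengths count all annotated exon bases of a gene, not the transcripts expressed, so the order between genes depends on them. By CPM alone, Txnrd1 (mean 257) was above Hmox1 (80.6) in the control osteoblasts. In the control osteoblasts Hmox1 was highest at 46.0 ± 2.49 CPM per kilobase (SD, n = 3), followed by Txnrd1 at 36.3 ± 0.884 and Nfe2l2 at 33.8 ± 1.74, which did not differ beyond their spread. Srxn1 at 26.5 ± 0.777 and Gsr at 25.7 ± 1.22 did not differ beyond their spread. The same held for Nqo1 at 13.6 ± 0.658 and Gclc at 12.9 ± 0.583, and for Osgin1 at 9.88 ± 0.306 and Gclm at 9.86 ± 0.231, with Keap1 below both at 8.95 ± 0.499. After SB216763, Hmox1 was at 339 ± 15.5, and Nfe2l2 at 85.1 ± 3.46, Nqo1 at 72.8 ± 5.84, and Srxn1 at 57.4 ± 1.89 had passed Txnrd1 at 41.9 ± 1.99. Gsr at 30.9 ± 0.937 and Gclc at 30.8 ± 0.357 were alike within their spread, and Osgin1, Gclm, and Keap1 closed the order at 17.99 ± 0.591, 11.5 ± 0.146, and 11.003 ± 0.106. In the ECs Hmox1 at 480.0 ± 9.14 was followed by Nqo1 at 108 ± 1.60 and Txnrd1 at 102 ± 0.451. Nfe2l2, Gclm, and Srxn1 came next at 42.5 ± 0.951, 39.2 ± 0.909, and 37.6 ± 0.668, then Gsr, Gclc, and Keap1 at 31.3 ± 0.153, 28.8 ± 0.354, and 11.4 ± 0.245. Osgin1 was last at 4.79 ± 0.311.

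Other genes around the pathway were examined as lists chosen by name. Of 25 further NRF2 targets, 17 were higher, 5 lower, and 3 not called after SB216763 (32.9% and 32% of all genes tested were higher and lower). Their median log2 fold change was 0.60. By 4-fold, 6 were higher and 1 lower, against 3.81% and 5.84% of all genes tested. Apart from the ferritins and Slc48a1, the higher ones included Mgst1, a membrane-bound glutathione transferase. It went from 0.0945, 0.127, and 0.139 CPM to 12.4, 13.2, and 11.3 CPM, with 45.3, 47.4, and 43.0 CPM in the ECs (log2 fold change 6.70 ± 0.15, adjusted p-value 1.82e-15 by edgeR with Benjamini-Hochberg adjustment). Its control libraries were close to the smallest level that the depth can show, so the size of that change is imprecise. The glutathione transferase gene Gstm1, which has close paralogs that could share reads, rose from 67.3 to 355 CPM (2.40 ± 0.06), against 51.0 CPM in the ECs. The 5 lower ones were Slc7a11, described above, Me1 (-1.34 ± 0.04), Ugdh (-0.78 ± 0.04), Tkt (-0.53 ± 0.04), and Txn1 (-0.49 ± 0.05). Me1, Ugdh, Tkt, and Txn1 were named after their values were seen. In the ECs against the control osteoblasts, 17 of the 25 targets were higher and 7 lower, where 39% and 37.9% of all genes tested were.

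Of 25 antioxidant enzymes outside the lists of NRF2 targets used here, 8 were higher, 11 lower, and 6 not called after SB216763. Their median was -0.14, and 32.9% of all genes tested were higher and 32% lower. Scaling by library size alone turned this to 11 higher, 8 lower, and a median of 0.06. Being outside those lists does not show that NRF2 has no part in a gene. Sesn1, a sestrin induced by p53 and FOXO factors, rose from 40.5 to 233 CPM, against 10.3 CPM in the ECs (log2 fold change 2.52 ± 0.05). The glutaredoxin gene Glrx rose from 7.94 to 25.8 CPM (1.70 ± 0.07) and the methionine sulfoxide reductase gene Msrb2 from 5.33 to 12.8 CPM (1.27 ± 0.07). The peroxidase genes Gpx7 and Prdx6 fell, from 77.3 to 37.1 CPM (-1.06 ± 0.05) and from 156 to 84.3 CPM (-0.89 ± 0.05). In the ECs against the control osteoblasts, 10 of these 25 were higher and 9 lower, close to the 39% and 37.9% of all genes tested.

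**Figure D4:**
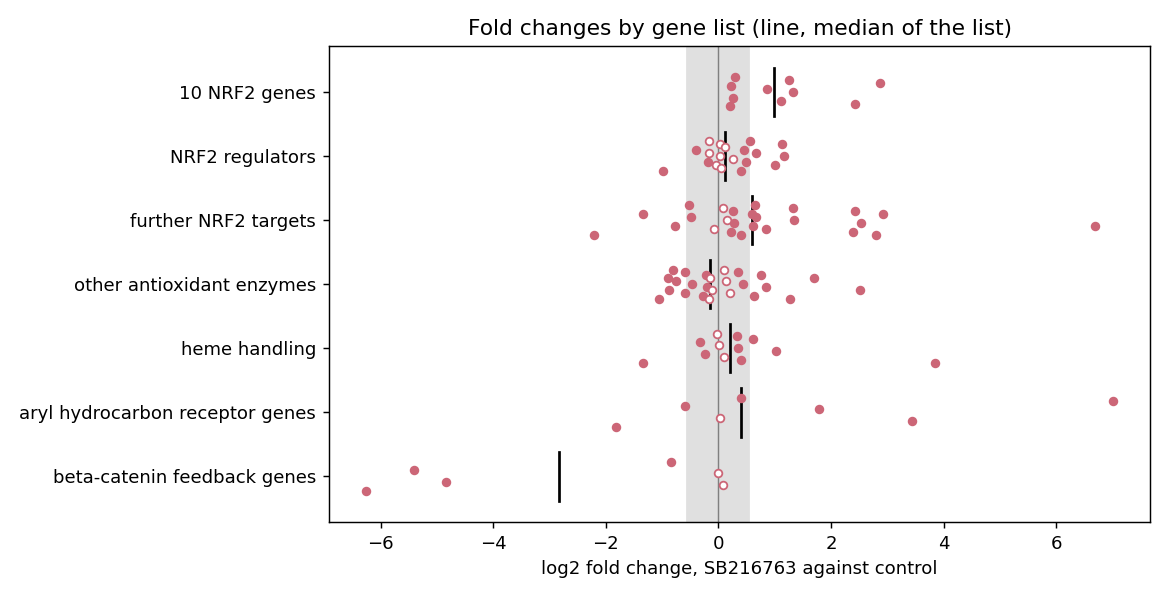
Log2 fold changes between SB216763 and control osteoblasts for the genes tested in each list. Each point is a gene, filled at an FDR under 0.01, black lines are list medians, and the gray band spans the middle 50% of all genes tested. The 10 NRF2 genes all lie above 0 with a median of 0.99, further NRF2 targets have a median of 0.60, and other antioxidant enzymes one of -0.14 (0.06 when scaled by library size alone).

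SB216763 is used to stabilize β-catenin, so the feedback genes of that pathway were read beside the NRF2 genes. By immunoblotting, the study found more β-catenin protein in treated osteoblasts, and by ChIP-Seq it reported genes with increased β-catenin binding. Transcripts of the feedback genes are a different measure and do not give the level of that protein. Of 8 such genes 6 were tested, and 4 were lower after SB216763 and 0 higher, where 32% and 32.9% of all genes tested were. At 4-fold 3 were lower, against 5.84% of all genes tested. When scaled by library size alone, 1 was higher, Znrf3. Axin2, the standard β-catenin target and a part of its destruction complex, fell from 26.5, 24.4, and 27.2 CPM to 0.831, 0.912, and 0.980 CPM (log2 fold change -4.83 ± 0.10, adjusted p-value 4.06e-16 by edgeR with Benjamini-Hochberg adjustment). Tcf7, a DNA-binding partner of β-catenin, fell from 75.9 to 1.79 CPM (-5.41 ± 0.08), and Rnf43, which encodes a ligase that removes Wnt receptors, from 23.8 to 0.306 CPM (-6.26 ± 0.17). Lef1 fell by 0.85 on the log2 scale. Znrf3 was not called (0.08 ± 0.06), and Sp5 had 0 counts in every osteoblast library.

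By profile over the 9 libraries, the genes most like Nqo1 among 9494 genes with a mean of at least 10 CPM were Pigq (Pearson correlation of log2 CPM 0.99958), Tmem106c (0.99905), and Gpr137b (0.99892). Those most like Hmox1 were Jam2 (0.99925), Rhobtb2 (0.9991), and S100a16 (0.99882). Nqo1 and Hmox1 had a correlation of 0.9987 with each other. With Nqo1, the other members had 0.967 (Keap1 and Gclc), 0.954 (Gsr), 0.739 (Txnrd1), 0.726 (Srxn1), 0.721 (Gclm), 0.549 (Nfe2l2), and -0.23 (Osgin1). The points are 3 groups of 3 libraries, so a value near 1 says only that the 3 group means have the same spacing. It was over 0.99 with Nqo1 for 97 genes and with Hmox1 for 87.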

How the data were processed

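Total RNA of 9 libraries was sequenced. Per the submitters' processing notes, reads were aligned with STAR 2.5.3a to GRCm38, and the authors deposited raw counts per gene, whole numbers without normalization, in 1 table. The annotation and strand setting are not given in the sources used here, and the labels carry the same treatment text for all samples, so groups came from titles and treatment entries. Symbols, positions, and exon lengths came from GENCODE M21.

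In R 4.3.3, edgeR 4.0.16 was run on all 9 libraries together (filterByExpr, TMM, quasi-likelihood test, Benjamini-Hochberg over 15531 genes, prior count 0.125). The standard error is the log2 fold change divided by the root of the F statistic. Calls used an FDR under 0.01, alone or with a log2 fold change of 2 or more in size. Alternatives included limma-voom 3.58.1 and DESeq2 1.42.0. The script was tested on simulated data. Members and lists were chosen with earlier results of these data known. Named genes were the 10 members, the 5 largest changes of each list at 1 CPM or more, 9 genes fixed by name, and the 3 closest profiles to Nqo1 and Hmox1. Same-numbered libraries had correlations of -0.0392 to 0.123 and were not treated as pairs.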

Additional observations from a re-analysis of the deposited data

How the results depend on the processing

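All 10 genes had higher estimates in SB216763 than in control osteoblasts under each of the 20 alternatives, and the only call lost was that of Txnrd1 without SB216763 replicate 1 (log2 fold change 0.18, adjusted p-value 0.0128, edgeR with Benjamini-Hochberg adjustment). Between ECs and control osteoblasts no direction and no call by FDR alone changed for the 10, and Gclm (3.97-fold) passed 4-fold with library size alone (log2 fold change 2.12), DESeq2, its size factors in edgeR, and without control replicate 2 or EC replicate 1, for 3 genes in place of 2. With a log2 threshold of 1 in place of 2, 5 genes were higher with SB216763, 5 higher and 1 lower in ECs, and 2 higher and 2 lower between SB216763 osteoblasts and ECs. In that last comparison Keap1 turned to 0.031 with scaling by library size alone, and Gsr to 0.059 with that scaling, 0.015 without the filter, and 0.012 in a fit of only the 2 groups. With single libraries left out Gsr ran from -0.029 to 0.017, the latter without SB216763 replicate 3. Gclc passed there by library size alone (0.18, adjusted p-value 0.00147), with only the 2 groups (0.13, adjusted p-value 0.0032), and at an FDR under 0.05. For SB216763 against control, scaling by library size alone gave 14 higher regulators in place of 8, 1 lower heme handling gene in place of 3, and 1 higher β-catenin feedback gene in place of 0, and DESeq2 and an FDR under 0.05 each gave 5 lower regulators in place of 3. For ECs against control, the 1 lower regulator became 2 with upper-quartile normalization, DESeq2, or no filter, 3 with limma-voom, only the 2 groups, or an FDR under 0.05, and 1 to 3 when single libraries were left out, with 2 without control replicate 3 or EC replicate 2 and 3 without SB216763 replicate 3. A fit with the replicate number as a replicate block gave 2 there and changed no call of the 10 genes. The cause of these changes was not tested.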
